A study of Rattus norvegicus with 6 samples.

Results

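The collagen genes were read in messenger RNA from 6 rats bearing PAIII tumors, and the measurements below concern 26 collagen chains out of the 17032 genes of the deposited table. The chains were taken by name, as every symbol made of Col, a number, the letter a and a number. They comprised 10 fibrillar chains, 3 chains of the basement membrane collagen type IV, and 13 other chains. Col4a3bp also begins with such a name but encodes a ceramide transfer protein, which RefSeq lists as Cert1, and it was left out. PAIII is a hormone-resistant prostate carcinoma that arose spontaneously in a Lobund-Wistar rat and is passaged in that strain, and all 6 hosts were Lobund-Wistar rats injected with the cells under the skin of the flank at 2 months of age. Rats A1, A6 and A12 received digitoxin, a cardiac glycoside, at 0.03 mg/kg by daily intraperitoneal injection from day 10 until tumors were collected on day 40, and rats B5, B9 and B14 received vehicle. The digitoxin-treated rats were taken from those with low serum IL-6 and CINC-1 and the vehicle rats from those with high values, so treatment and serum marker level cannot be told apart. Each library was made from 10 punches, 1 mm across, of tumor in 300 micron sections, so each value mixes carcinoma cells with the other cells of the punches. In such bulk RNA, fewer cells of a type and less RNA per cell cannot be told apart.

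Collagens are trimers of alpha chains wound into a helix, most of them secreted, and they give tissue its tensile strength. Fibrillar collagens, chiefly types I and III with the regulatory types V and XI, assemble into the fibers of connective tissue and tumor stroma and are made mostly by fibroblasts. Type IV collagen forms the sheet-like network of basement membranes under epithelium and around vessels, and its alpha 3 and alpha 4 chains are known from the kidney glomerulus and the lung alveolus, while alpha 1 is found in nearly all basement membranes. Fibril-associated, beaded filament, multiplexin and transmembrane collagens link these structures to one another and to cells. In carcinomas, fibrillar collagen marks the reactive stroma between islands of tumor cells.

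The genes of the type IV chains lie head to head, in pairs that share a stretch of promoter. Promoters of the 3 type IV chains in the table are shown so that the shared stretches can be seen, and nothing measured here bears on what they do. The sequences are those of RefSeq for the build GRCr8, from 250 bases before to 50 after the annotated start of each gene, 5′ to 3′ on the strand of the gene. The Col4a3 window is at chr9:91323740-91324039 on the plus strand and the Col4a4 window at chr9:91323528-91323827 on the minus strand, and the starts lie 413 bases apart. The Col4a1 window is at chr16:84885347-84885646 on the plus strand, and its start lies 77 bases from that of Col4a2, a chain not analysed here. Capitals mark the bases that also belong to the window of the neighboring gene, 88 bases for Col4a3 and Col4a4 and 176 bases for Col4a1.
Col4a3: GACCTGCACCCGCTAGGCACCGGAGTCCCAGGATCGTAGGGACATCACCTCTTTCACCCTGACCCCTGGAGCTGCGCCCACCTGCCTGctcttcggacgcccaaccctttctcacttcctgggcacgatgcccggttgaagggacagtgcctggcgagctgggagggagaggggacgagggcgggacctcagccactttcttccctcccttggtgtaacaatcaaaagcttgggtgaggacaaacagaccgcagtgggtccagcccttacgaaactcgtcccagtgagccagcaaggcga
Col4a4: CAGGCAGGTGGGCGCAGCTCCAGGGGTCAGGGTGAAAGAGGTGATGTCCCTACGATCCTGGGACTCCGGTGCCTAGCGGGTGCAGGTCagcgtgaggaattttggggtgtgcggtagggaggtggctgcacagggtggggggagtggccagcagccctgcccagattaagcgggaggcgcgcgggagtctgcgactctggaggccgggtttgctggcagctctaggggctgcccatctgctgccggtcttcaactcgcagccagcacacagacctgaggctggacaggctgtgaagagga
Col4a1: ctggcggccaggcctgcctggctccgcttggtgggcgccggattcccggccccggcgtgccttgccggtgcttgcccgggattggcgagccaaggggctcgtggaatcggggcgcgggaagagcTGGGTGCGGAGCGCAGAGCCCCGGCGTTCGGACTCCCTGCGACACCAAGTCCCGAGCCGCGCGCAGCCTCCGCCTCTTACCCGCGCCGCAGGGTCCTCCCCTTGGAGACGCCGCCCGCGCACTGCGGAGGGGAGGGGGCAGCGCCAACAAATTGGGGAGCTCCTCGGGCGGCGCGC

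A promoter was found for 21 of the 26 chains, counting that of Col6a4 for Col6a4p1, a synonym of Col6a4 in RefSeq. None was found for Col1a1, Col2a1, Col3a1, Col6a2 or Col14a1. The letters GGGCGG, read on either strand, were present in 12 of the 21 windows, or 57.1%, against 33.1% of all 33469 promoters of the same length. The letters CCAAT were in 6 of the 21, or 28.6%, against 37.5% of all promoters, and TATAAA was in 3, or 14.3%, against 14.2%. GGGCGG was in the Col4a3 and Col4a1 windows and in those of Col5a1, Col5a3, Col11a1 and Col18a1.

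Values are FPKM, fragments scaled to transcript length and to the mapped fragments of the library, so levels may be compared between genes. The depth of the libraries is unknown without their reads, and no counting error can be given. The tumors did not group by treatment. A12 and B14 formed a pair unlike A1, A6, B5 and B9, and across genes their deviations from their own group means had r = 0.869. The 6 markers of lung alveolar epithelium summed to between 26744 and 82210 FPKM in A1, A6, B5 and B9 but to 17.5 FPKM in A12 and 25.2 FPKM in B14, where the surfactant mRNAs Sftpb and Sftpa1 were listed at 0. The paper describes the profiled samples as primary tumors, grown in the flank, and states that selected lung metastases were frozen as well. The source of the alveolar transcripts was not tested, so the tumors may not be samples of like tissue. The 4 prostate lineage markers used here were at or near 0 in every tumor, with a sum of at most 0.343 FPKM, while the simple epithelial keratin Krt8 was abundant, at 398 to 2095 FPKM. The group of each tumor rests on its label, and the labels of A1 and B9 are in doubt, since an earlier comparison of these values with fold changes listed by the study fitted best with each of them in the other group, which was not tested here. Collagen values are therefore given by tumor, and the treatments are compared with and without A12 and B14 and without A1 and B9.

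**Figure D1:**
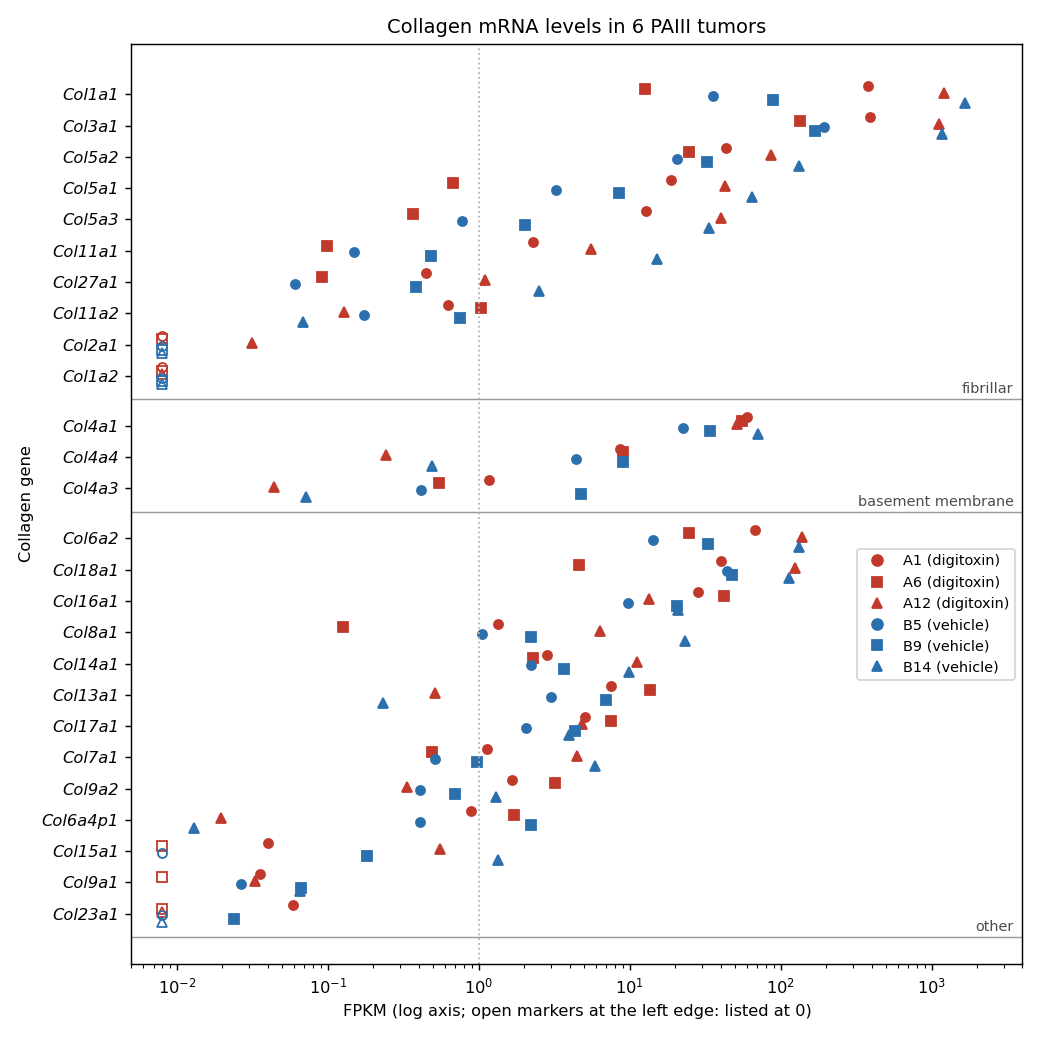
FPKM of each of the 26 collagen chains on a log axis, with 1 point per tumor (red, digitoxin; blue, vehicle) and open markers at the left edge for values listed at 0. The triangles of A12 and B14 lie to the right for most fibrillar chains, from 1205 and 1665 FPKM for Col1a1, and to the left for Col4a3, Col4a4 and Col13a1.

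In every tumor the fibrillar chains were the largest class of the 26, from 51.1% of their FPKM in A6 to 88.9% in B14. They were also the part that varied most. Chains such as Col4a2, Col6a1 and Col6a3 were not analysed here, so these are not shares of all collagen mRNA. Col1a1, the alpha 1 chain of type I collagen on chromosome 10 from 82563433 to 82580364 in the coordinates of the table, measured 381 FPKM in A1, 12.7 FPKM in A6, 1205 FPKM in A12, 35.4 FPKM in B5, 88.8 FPKM in B9 and 1665 FPKM in B14. It was highest in A12 and B14, 1 tumor of each treatment, and A6 was the lowest, and the groups overlapped. The ratio of the highest to the lowest tumor was 131. Col3a1, the chain of type III collagen that joins type I in soft tissue fibers, measured 389 FPKM in A1, 134 FPKM in A6, 1120 FPKM in A12, 194 FPKM in B5, 168 FPKM in B9 and 1171 FPKM in B14. A12 and B14 were again highest and close to each other, and the spread was narrower, with a ratio of highest to lowest of 8.74.

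The chains of type V collagen, which start and limit the width of type I fibrils, had the same 3 tumors on top, with ranges of different width. Col5a2, next to Col3a1 on chromosome 9, measured 43.4 FPKM in A1, 24.7 FPKM in A6, 85.8 FPKM in A12, 20.7 FPKM in B5, 32.4 FPKM in B9 and 132 FPKM in B14, a 6.40-fold range. Col5a1 measured 18.7 FPKM in A1, 0.675 FPKM in A6, 42.9 FPKM in A12, 3.27 FPKM in B5, 8.49 FPKM in B9 and 64.1 FPKM in B14, a 95-fold range. Both chains were highest in A12 and B14, with A1 next. Col5a3, a chain of narrower tissue distribution, measured 12.7 FPKM in A1, 0.369 FPKM in A6, 39.96 FPKM in A12, 0.777 FPKM in B5, 2.04 FPKM in B9 and 33.6 FPKM in B14. Unlike Col5a1 and Col5a2, it was higher in A12 than in B14. Col11a1, a minor fibrillar chain best known from cartilage and from activated tumor fibroblasts, was at 15.3 FPKM in B14, 5.58 FPKM in A12 and 2.30 FPKM in A1, and at most 0.484 FPKM in the other tumors. Col27a1 was at most 2.5 FPKM, with A12 and B14 on top.

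The remaining fibrillar chains were low or unmeasured. Col11a2 was the 1 fibrillar chain with A12 and B14 at the bottom, at 0.128 and 0.0688 FPKM against 0.174 to 1.03 FPKM in the others. Col2a1, the main collagen of cartilage, was listed at 0 in 5 tumors and at 0.0313 FPKM in A12, and none of the 7 cartilage markers in the table had a mean of 1 FPKM. Col1a2, the partner of Col1a1 in the type I trimer, was listed at 0 in all 6 tumors on both of its rows, at chromosome 4 from 29443177 to 29478105 and from 31405252 to 31440180. These entries may be failed estimates, since 80.5% of the rows of repeated symbols were listed at 0 in all tumors against 14.2% of the other rows, and the level of Col1a2 is taken as not known.

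Among the type IV chains, Col4a1 and the pair Col4a3 and Col4a4 were distributed differently. Col4a1, the chain common to most basement membranes, measured 59.6 FPKM in A1, 55.7 FPKM in A6, 51.5 FPKM in A12, 22.4 FPKM in B5, 34.0 FPKM in B9 and 71.2 FPKM in B14. Its range of 3.18-fold was the smallest of the 18 collagens with a mean of at least 1 FPKM, with B14 highest and A12 among the other tumors. Col4a3 and Col4a4 were described outside the rule for named genes, after their values were seen. Col4a4 measured 8.67 FPKM in A1, 9.06 FPKM in A6, 0.244 FPKM in A12, 4.41 FPKM in B5, 8.96 FPKM in B9 and 0.488 FPKM in B14. Col4a3 measured 1.17 FPKM in A1, 0.547 FPKM in A6, 0.0442 FPKM in A12, 0.416 FPKM in B5, 4.75 FPKM in B9 and 0.0721 FPKM in B14. Both chains, whose loci lie side by side on chromosome 9 (88062425 to 88104120 and 88104687 to 88232032 in the table) and whose promoters are printed above, were lowest in A12 and B14, the tumors where the alveolar markers were near 0, as were 29.3% of all genes with a mean of at least 1 FPKM. The part of lung tissue in these values was not tested. Chains alpha 2, alpha 5 and alpha 6 were not analysed here.

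Of the 9 other collagens with a mean of at least 1 FPKM, 5 were highest in A12 and B14, 1 was lowest in both, and Col16a1, Col17a1 and Col9a2 were neither. Col6a2, a chain of the beaded filaments that surround cells, measured 67.4 FPKM in A1, 24.8 FPKM in A6, 139 FPKM in A12, 14.2 FPKM in B5, 33.0 FPKM in B9 and 132 FPKM in B14. Col18a1, a basement membrane proteoglycan from whose end the fragment endostatin is cut, measured 40.3 FPKM in A1, 4.63 FPKM in A6, 124 FPKM in A12, 43.9 FPKM in B5, 47.7 FPKM in B9 and 113 FPKM in B14. A12 and B14 were the highest for both, and A6 stood far below the others for Col18a1 alone of this pair. Col7a1, the anchoring fibril of skin, Col8a1, a short chain collagen of vessel walls, and Col14a1, a fibril-associated collagen, were also highest in A12 and B14, at 4.44 and 5.92, 6.36 and 23.1, and 11.1 and 9.82 FPKM, against at most 1.13, 2.20 and 3.66 FPKM in the other tumors.

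Col16a1, a fibril-associated collagen, measured 28.3 FPKM in A1, 42.2 FPKM in A6, 13.4 FPKM in A12, 9.67 FPKM in B5, 20.7 FPKM in B9 and 21.0 FPKM in B14, so that A6, the lowest tumor for Col1a1, Col5a1 and Col5a3, was here the highest. Col17a1, a transmembrane collagen of the hemidesmosomes by which basal epithelial cells hold to the basement membrane, measured 5.05 FPKM in A1, 7.55 FPKM in A6, 4.86 FPKM in A12, 2.05 FPKM in B5, 4.34 FPKM in B9 and 3.98 FPKM in B14. Its 2 treatment groups did not overlap, which held for 1 of the 18 collagens tested and for 4.16% of all genes tested, a like share. Col13a1, a transmembrane collagen named after its values were seen, measured 7.49 FPKM in A1, 13.6 FPKM in A6, 0.511 FPKM in A12, 3.002 FPKM in B5, 6.98 FPKM in B9 and 0.232 FPKM in B14, with A12 and B14 lowest, as for Col4a4. Col6a4p1 was likewise lowest in A12 and B14, at 0.0195 and 0.0130 FPKM. Col9a2 ran from 0.336 to 3.19 FPKM, and Col15a1, Col9a1 and Col23a1 were at most 1.35 FPKM in every tumor and listed at 0 in 2, 1 and 4 of them.

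Of the 18 collagens with a mean of at least 1 FPKM, 11 were higher in both A12 and B14 than in the other 4 tumors and 3 were lower in both. Over all 10742 genes with such a mean the shares were 30.1% and 29.3%, so most genes had these 2 libraries at one end. The 11 comprised the 6 fibrillar chains that passed this minimum and 5 other chains, and the 3 comprised 2 type IV chains and 1 other chain. The minimum fixes part of this count, since Col11a1 and Col7a1 passed it only through A12 and B14, with means of 0.758 and 0.777 FPKM over the other 4 tumors, and Col11a2, which was lower in both, did not pass. With the minimum applied to the mean of the other 4 tumors, chosen after the data were seen, 17 collagens passed, of which 9 were higher in both and 4 lower in both, against 29% and 30.3% of the 10758 genes that passed. The median ratio of the highest to the lowest tumor was 19.4 over the 18 collagens and 2.78 over the 10274 such genes that were above 0 in all tumors.

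**Figure D2:**
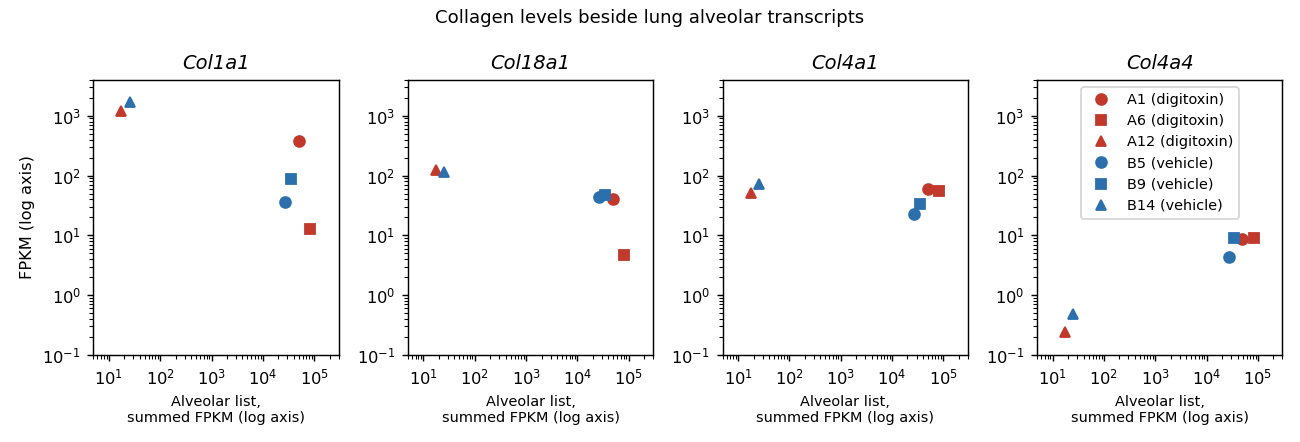
FPKM of Col1a1, Col18a1, Col4a1 and Col4a4 against the summed FPKM of 6 lung alveolar markers, both on log axes, with 1 point per tumor. A12 and B14, at 17.5 and 25.2 FPKM of alveolar markers, are highest for Col1a1 and Col18a1 and lowest for Col4a4, while for Col4a1 B14 is highest at 71.2 FPKM and A12, at 51.5 FPKM, lies among the other tumors.

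Summed by class, fibrillar collagen came to 848 FPKM in A1, 174 FPKM in A6, 2501 FPKM in A12, 254 FPKM in B5, 301 FPKM in B9 and 3084 FPKM in B14. The type IV chains came to 69.4 FPKM in A1, 65.4 FPKM in A6, 51.8 FPKM in A12, 27.2 FPKM in B5, 47.7 FPKM in B9 and 71.7 FPKM in B14, and the other collagens to between 77.4 FPKM (B5) and 312 FPKM (B14). The highest and lowest tumors thus differed 17.8-fold for fibrillar, 4.03-fold for other and 2.63-fold for type IV collagen. The ratio of fibrillar to type IV sums was 12.2 (A1), 2.66 (A6) and 48.3 (A12) with digitoxin and 9.34 (B5), 6.31 (B9) and 43.0 (B14) with vehicle. Col1a1 and Col3a1 alone made up from 43.2% (A6) to 81.8% (B14) of the FPKM of the 26 chains. The 26 chains together were 0.132% of the FPKM of A1, 0.0331% of A6, 0.417% of A12, 0.0429% of B5, 0.0658% of B9 and 0.532% of B14. These sums, ratios and shares leave out chains not analysed here, such as Col4a2, Col6a1 and Col6a3, and count Col1a2 as 0.

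The class sums did not separate the treatments. Fibrillar collagen in digitoxin-treated tumors averaged 1174 ± 1197 FPKM (SD, n = 3), beside 1213 ± 1620 FPKM (SD, n = 3) in vehicle tumors, and type IV collagen 62.2 ± 9.24 FPKM (SD, n = 3) and 48.9 ± 22.3 FPKM (SD, n = 3). The log2 ratio of the fibrillar means, -0.0472, was -1.25 without A12 and 2.08 without B14. The groups overlapped in both classes, and the type IV difference was larger than the SD of the digitoxin-treated tumors but smaller than that of the vehicle tumors. The other collagens averaged 188 ± 106 FPKM (SD, n = 3) and 171 ± 124 FPKM (SD, n = 3), a log2 ratio of 0.14 that was -0.41 without A12 and 0.91 without B14. The log2 ratio of the type IV means, 0.35, ran from 0.0581 (without B5) to 0.73 (without B14) with 1 tumor left out. It became 0.0137 with types XV and XVIII counted as basement membrane and 0.10 with FPKM rescaled to equal sums. The rescaling also turned that of the other collagens from 0.14 to -0.0134. These sums cover the chains in the table, and a sum over chosen chains was given no test.

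**Figure D3:**
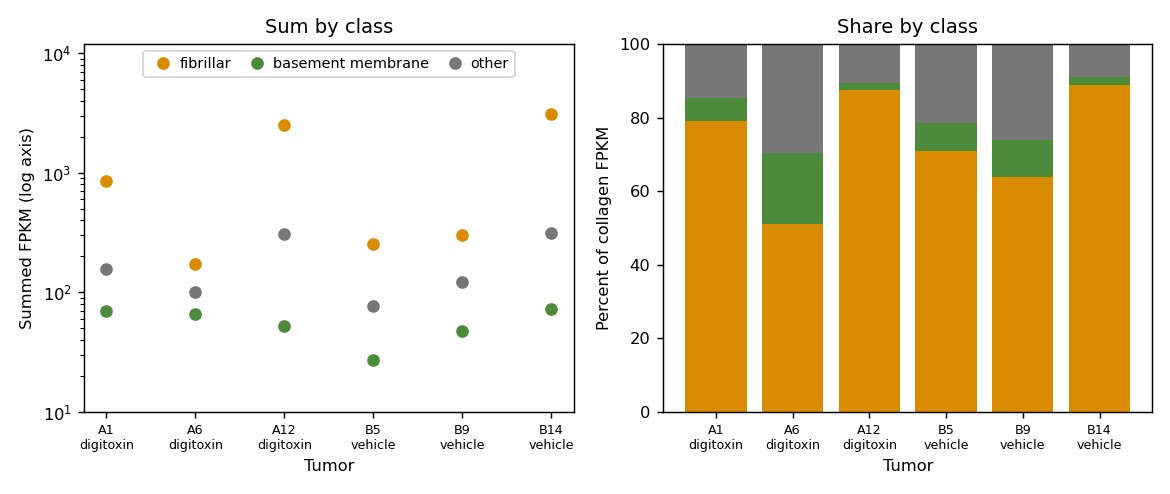
Left, summed FPKM of the fibrillar, type IV (basement membrane) and other collagens in each tumor on a log axis. Right, the percent of collagen FPKM in each class, where the fibrillar share runs from 51.1% in A6 to 88.9% in B14 and the type IV share from 1.81% in A12 to 19.2% in A6.

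Chains that share a fiber or a trimer were not in fixed proportion. The ratio of Col3a1 to Col1a1 was 1.02 (A1), 10.6 (A6) and 0.929 (A12) with digitoxin and 5.47 (B5), 1.89 (B9) and 0.703 (B14) with vehicle. Col3a1 was thus above Col1a1 where the fibrillar sum was low and near or below it where that sum was high. Col1a1 is the divisor of the ratio and also part of the sum, so part of this pattern is built in. The ratio of Col5a2 to Col5a1 was 2.32 (A1), 36.6 (A6) and 1.999 (A12) with digitoxin and 6.33 (B5), 3.81 (B9) and 2.07 (B14) with vehicle. In A1, A12 and B14 it was close to 2, and in A6, where Col5a1 was at 0.675 FPKM, it was highest. The ratio of Col4a4 to Col4a3 was 7.40 (A1), 16.6 (A6) and 5.51 (A12) with digitoxin and 10.6 (B5), 1.89 (B9) and 6.77 (B14) with vehicle. All 3 ratios overlapped between the treatments, and the precision of those that rest on values under 1 FPKM is unknown. With the tumors averaged by treatment, the ratio of Col3a1 to Col1a1 was 4.17 ± 5.53 (SD, n = 3) with digitoxin and 2.69 ± 2.48 (SD, n = 3) with vehicle. Without A6 the log2 ratio of these means went from above to below 0, to -1.47, and that for Col5a2 to Col5a1 to -0.92.

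**Figure D4:**
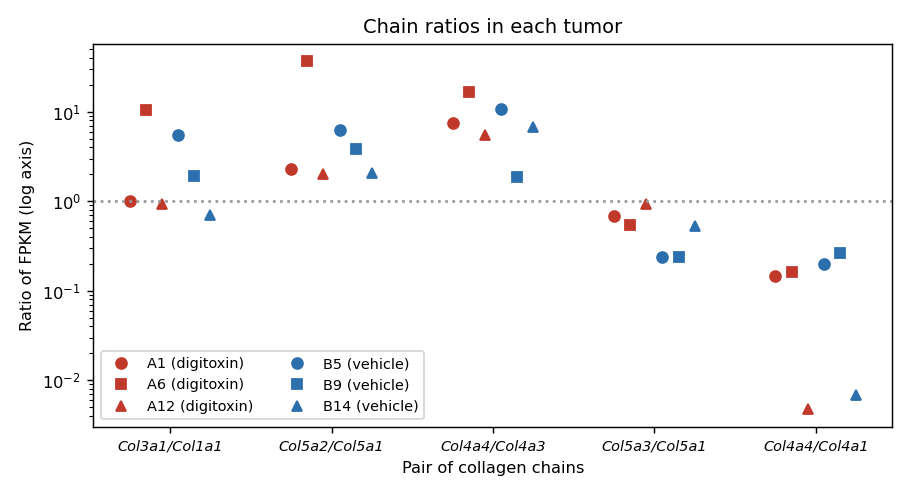
Ratio of FPKM of pairs of collagen chains in each tumor on a log axis (red, digitoxin; blue, vehicle). Col5a3/Col5a1 and Col4a4/Col4a1 were formed after the values were seen. The A6 square is highest for Col3a1/Col1a1 (10.6), Col5a2/Col5a1 (36.6) and Col4a4/Col4a3 (16.6), and for Col4a4/Col4a1 A12 (0.00474) and B14 (0.00686) lie far below the other tumors.

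Digitoxin-treated and vehicle tumors were compared gene by gene with limma over the 10742 genes whose mean reached 1 FPKM. The scale was log2(FPKM + 1), on which changes of low mRNAs come out too small. Tests were two-sided, with adjustment by Benjamini and Hochberg over all of them. None of the 18 collagens tested passed an adjusted p under 0.05, and the share of all genes called was 0%. The smallest adjusted p among the collagens was 0.926, the same as over all genes. None had an unadjusted p under 0.05 either, against 36 genes or 0.335% of all. Of the 18, 11 had a positive and 7 a negative log2 fold change, with a median of 0.13. Over all genes tested the median was -0.16, and 64.9% were negative. With median-of-ratios scaling, which moved the median of all genes to 0.0205, the split was 12 and 6 and the median 0.32. All genes then split into 5555 positive and 5187 negative. With 1 tumor left out, the collagen median as deposited ran from -0.42 (without A12) to 0.76 (without B14). By class, the medians in all 6 tumors were 0.0412 for the 6 fibrillar chains, 0.20 for the 3 type IV chains and 0.48 for the 9 other chains. Each changed sign when 1 tumor was left out, with ranges from -0.65 to 1.12, from -0.57 to 0.59 and from -0.0980 to 0.58, so they do not order the classes.

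The intervals show how little the comparison bounds the fibrillar chains. Col1a1 had a log2 fold change of 0.0707 with a standard error of 2.05, and its 95% interval ran from -4.89 to 5.03. For Col3a1 it was 0.20 with a standard error of 1.02 (interval from -2.27 to 2.68) and for Col5a2 0.0116 with a standard error of 0.77 (-1.86 to 1.88). Changes of over 2-fold in either direction thus lie inside the intervals of all 3. Col5a1 and Col5a3 had -0.29 and 0.68, with standard errors of 1.49 and 1.59. Col6a2 had 0.62 (standard error 0.94) and Col18a1 -1.03 (standard error 1.12), and without A6 the latter was 0.19. Leaving out 1 tumor also reversed Col5a1 (1.09 without A6), Col5a3 (-0.40 without A12) and Col6a2 (-0.0980 without B5), as well as Col1a1, Col3a1 and Col5a2.

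The collagens that varied least between tumors had the narrowest intervals. Col4a1 averaged 55.6 ± 4.05 FPKM (SD, n = 3) in the digitoxin-treated tumors, beside 42.5 ± 25.5 FPKM (SD, n = 3) with vehicle, and its log2 fold change was 0.54 with a standard error of 0.42 (interval from -0.49 to 1.56). Col16a1 averaged 28.0 ± 14.4 FPKM (SD, n = 3) and 17.1 ± 6.43 FPKM (SD, n = 3), with 0.61 and a standard error of 0.51. Col17a1 averaged 5.82 ± 1.499 FPKM (SD, n = 3) and 3.46 ± 1.24 FPKM (SD, n = 3), was higher in each digitoxin-treated tumor than in any vehicle tumor, and had a log2 fold change of 0.63 with a standard error of 0.37 (interval from -0.26 to 1.53). Its adjusted p by limma was 0.926. The tumors behind this lack of overlap include A1 and B9, whose labels are in doubt.

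Without A12 and B14, the 2 tumors with few alveolar transcripts, 3 of the 18 collagens had an unadjusted p under 0.05 by limma, against 11.1% of all genes in the same fit. They were Col4a1, Col16a1 and Col9a2, with log2 fold changes of 1.03 (standard error 0.30), 1.23 (0.44) and 1.12 (0.44). Each was higher in both A1 and A6 than in B5 and B9, and the adjusted p of each was 0.391. The alveolar markers were also higher in A1 and A6, with sums of 49624 and 82210 FPKM against 26744 in B5 and 34608 in B9, and the endothelial markers summed to 532 and 1162 FPKM against 225 and 425 FPKM. The part of lung tissue and of vessels in these collagen values was not tested. Without A12 alone Col16a1 was the 1 collagen of 18 with an unadjusted p under 0.05, against 19.7% of all genes, and without B14 alone Col4a1 was, against 0.484% of all genes. Without A1 and B9, the tumors whose labels are in doubt, 0 collagens had an unadjusted p under 0.05 by limma and 0 passed the adjusted threshold, against 0.102% of all genes at the unadjusted p. The log2 fold changes of Col4a1, Col16a1 and Col17a1 were then 0.41, 0.70 and 0.86.

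**Figure D5:**
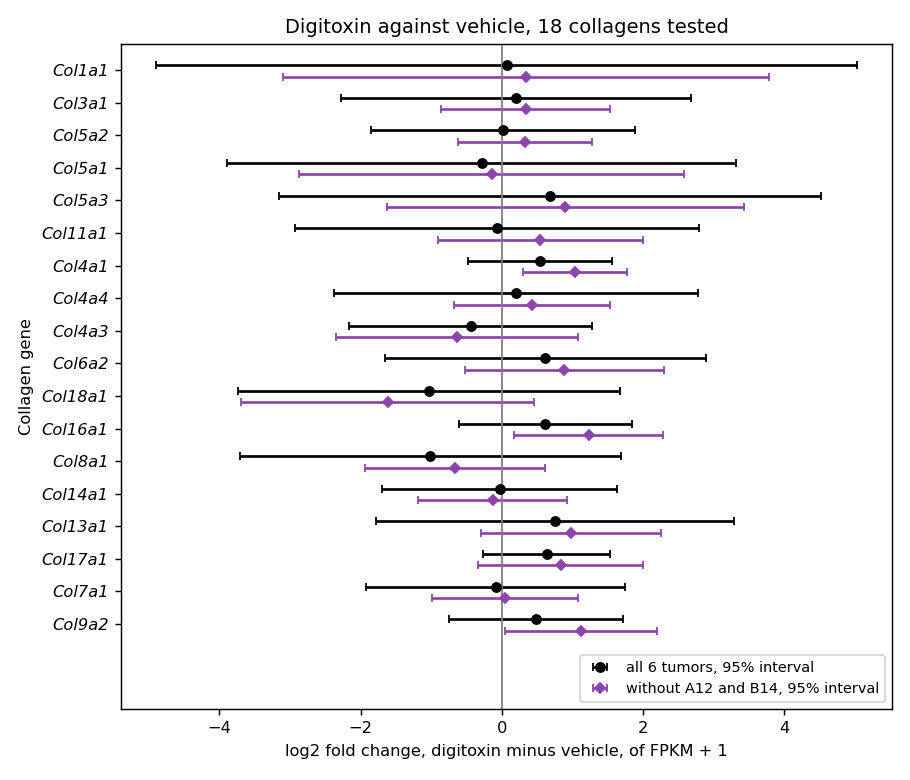
log2 fold change of FPKM + 1, digitoxin minus vehicle, for the 18 collagens with a mean of at least 1 FPKM, with 95% intervals, in all 6 tumors (black) and without A12 and B14 (purple). Every black interval includes 0, and the purple intervals of Col4a1, Col16a1 and Col9a2 do not.

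The enzymes and chaperones of collagen synthesis did not separate the treatments. Of the 18 genes listed for chain modification and folding, 15 were tested, 0 passed the adjusted threshold (0 also at an unadjusted p under 0.05), and their median log2 fold change was 0.0757. Their median ratio of highest to lowest tumor was 2.73, near the 2.78 over all genes and under the 19.4 of the collagens, although Plod2, P4ha3 and P4ha1, at 12.4, 11.9 and 10.9, had wider ranges than Col3a1. Ppib, a proline isomerase of the endoplasmic reticulum, had the highest mean of the list, and measured 684 FPKM in A1, 704 FPKM in A6, 1021 FPKM in A12, 850 FPKM in B5, 669 FPKM in B9 and 874 FPKM in B14. In 12 of the 15, A12 and B14 were the highest tumors, as they were for 30.1% of all genes, and the 12 included, named after their values were seen, the prolyl hydroxylase subunits P4ha1, P4ha2 and P4hb, the lysyl hydroxylases Plod1, Plod2 and Plod3 and the collagen chaperone Serpinh1. Crtap was listed at 0 in 5 tumors.

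For procollagen processing and crosslinking, 9 of 12 genes were tested, 0 passed (0 at an unadjusted p under 0.05), the median log2 fold change was 0.0365, and A12 and B14 were highest for 6, against 30.1% of all genes. Adamts14, 1 of the 6, reached a mean of 1 FPKM only through these 2 tumors. Pcolce, which speeds removal of the end of the procollagen chain, was the most abundant, at 71.1 FPKM in A1, 39.0 FPKM in A6, 131 FPKM in A12, 44.3 FPKM in B5, 29.9 FPKM in B9 and 172 FPKM in B14. Among collagen receptors 6 of 10 were tested, and 0 passed (0 at an unadjusted p under 0.05). The median log2 fold change was -0.45, with all 6 negative as deposited, 5 with median-of-ratios scaling and 4 without A12 and B14. Of all 10742 genes tested, 64.9% were negative as deposited and 5187 with that scaling, and 3801 were positive without A12 and B14. Itga11, 1 of the 6, reached a mean of 1 FPKM only through A12 (2.43 FPKM) and B14 (6.13 FPKM), with at most 0.465 FPKM in the others. Itgb1, the integrin beta 1 chain that pairs with each collagen-binding alpha chain, was the most abundant, from 119 FPKM in A6 to 536 FPKM in B14. Of 13 basement membrane partners, 7 were tested, with 0 passing (0 at an unadjusted p under 0.05) and a median of 0.10. Sparc, a collagen-binding matrix protein, was the most abundant of these and measured 1237 FPKM in A1, 1137 FPKM in A6, 1535 FPKM in A12, 589 FPKM in B5, 741 FPKM in B9 and 1977 FPKM in B14. With A12 and B14 left out, Sparc and the crosslinking enzyme Loxl1 had an unadjusted p under 0.05, 1 gene of the 7 and 1 of the 9, in a fit where 11.1% of all genes did. Neither passed the adjusted threshold.

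Values of cell type markers are given beside the fibrillar chains. The 7 fibroblast markers summed to between 131 and 226 FPKM in A1, A6, B5 and B9, and to 1012 FPKM in A12 and 1786 FPKM in B14, and 6 of the 7 were highest in those 2 tumors, where 30.1% of all genes tested were highest. Postn had the highest mean among them. Fap, a marker of activated fibroblasts, is 1 of the 6 and reached a mean of 1 FPKM only through these 2 tumors, with at most 1.14 FPKM in the others and a listing of 0 in A6. The 6 smooth muscle markers summed to between 62.1 and 211 FPKM in the same 4 tumors, and to 377 and 781 FPKM in A12 and B14, but only 3 of the 6 were highest in those 2 tumors. Of the 6 endothelial markers, 5 were lowest there, as were 29.3% of all genes, with sums of 225 to 1162 FPKM against 55.3 and 67.3 FPKM. By treatment, the fibroblast sums ran from 157 to 1012 FPKM with digitoxin and from 131 to 1786 FPKM with vehicle. A1 had more fibrillar collagen than A6, B5 and B9 with a fibroblast sum of 226 FPKM, beside 157, 131 and 159 FPKM. The 7 cell division genes summed to 34.2 FPKM in A6, the tumor lowest in Col1a1, Col5a1 and Col18a1, and to 217 to 431 FPKM in the others. How far these cell mixtures set the collagen values was not tested.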

How the data were processed

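The values are FPKM that the authors computed with Bowtie 2, TopHat 2 and Cufflinks 2 from single reads of TruSeq libraries and deposited in 1 table with a column per tumor. The submitters' processing notes name the human build hg19, while the loci lie on rat chromosomes, so the rat build is not given in the sources used here. The table has 17557 rows and 17030 symbols. A repeated symbol was read from its row with the highest mean, and 23 symbols changed to dates were kept apart by locus, which left 17032 genes. The FPKM were used as deposited.

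Groups follow the labels (n = 3 each), which are in doubt for A1 and B9. The fits used limma 3.58.1 in R 4.3.3 (lmFit, then eBayes with the trend option) and log2(FPKM + 1) of the 10742 genes whose mean was at least 1 FPKM. A run on simulated data checked the code only. Its tumors varied independently, unlike A12 and B14, so it does not show how the fits perform on these tumors. Other values were computed with Python 3.11.15 and pandas 2.3.3. Labels do not say whether samples were processed together. Each p-value sets the difference between the groups against the spread within them, which eBayes moderates over all genes tested. An exact permutation test of 3 against 3 cannot go below p = 0.1 and was not used. Same-numbered tumors deviated together from their group means, with r = 0.43 (A1 and B5), 0.606 (A6 and B9) and 0.869 (A12 and B14), but so did A1 with B9 (0.648) and A6 with B5 (0.613). Nothing in the labels says what a number marks. The replicate number as a block was an alternative.

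Values by tumor are given for collagens with a mean of at least 10 FPKM, an unadjusted p under 0.05 or groups that do not overlap, and for the most abundant gene of each pathway list. The members, lists and tests were chosen with earlier results of these data known. Alternatives were median-of-ratios scaling, the replicate block, a pseudocount of 0.1, all genes above 0 in any tumor, the trend option off, summed repeated rows, types XV and XVIII counted as basement membrane, FPKM rescaled to equal sums, and leaving out each tumor or both A12 and B14. Leaving out tumors from sums and ratios, and leaving out A1 and B9 throughout, were added after the data were seen. Ratios planned for Col1a2, Col4a2, Col4a6, Col6a1, Col6a3 and Col8a2 could not be formed. 1 listed marker is not reported here.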

Additional observations from a re-analysis of the deposited data

How the results depend on the processing

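No collagen passed the adjusted threshold under any of the 14 alternatives to the fit, including the replicate block, where 0 had an unadjusted p under 0.05, against 447 of all genes, and adjusted p began at 0.638. The count at an unadjusted p under 0.05 was 0 in all 6 tumors, 3 without A12 and B14, 0 without A1 and B9, and from 0 to 1 with single tumors left out, while the count over all 10742 genes ran from 12 (without B9) to 2115 (without A12). With 1 tumor left out, the collagen median on the log2 scale lay between -0.42 (A12 left out) and 0.76 (B14 left out), and ran from -0.65 to 1.12 for fibrillar, from -0.57 to 0.59 for type IV and from -0.0980 to 0.58 for other chains. For single genes these fits reversed the direction of Col1a1 (-1.28 to 1.95), Col3a1 (-0.56 to 1.10), Col5a2 (-0.53 to 0.78), Col5a1 (-1.26 to 1.09), Col5a3 (-0.40 to 2.05), Col6a2 (-0.0980 to 1.47) and Col18a1 (-2.05 to 0.19). Without A1 and B9 the values of Col1a1 (-0.94), Col3a1 (-0.30), Col5a2 (-0.19) and Col5a3 (-0.0661) were reversed too. The other alternatives reversed none of these, and Col4a1 (0.17 to 0.98), Col16a1 (0.26 to 1.05) and Col17a1 (0.38 to 0.79) kept their direction. The log2 ratio of group means ran from -1.25 (without A12) to 2.08 (without B14) for the fibrillar sum, from 0.0581 (without B5) to 0.73 (without B14) for the type IV sum, from -0.41 (without A12) to 0.91 (without B14) for the sum of other collagens, from -1.47 (without A6) to 1.68 (without B5) for Col3a1 to Col1a1, and from -0.92 (without A6) to 2.26 (without A12) for Col5a2 to Col5a1. Median-of-ratios scaling moved the median of all genes from -0.16 to 0.0205. The depth of each library is unknown.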

Other observations

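The ratio of Col5a3 to Col5a1, formed after the values were seen, was 0.679 (A1), 0.546 (A6) and 0.931 (A12) with digitoxin and 0.238 (B5), 0.240 (B9) and 0.524 (B14) with vehicle. It was higher in each digitoxin-treated tumor than in any vehicle tumor, with means of 0.719 ± 0.195 (SD, n = 3) and 0.334 ± 0.165 (SD, n = 3), and A6 and B14 were separated by little. The labels of A1 (0.679) and B9 (0.240) are in doubt, and with each in the other group the values would overlap. It was picked for this pattern from among many possible pairs and was not tested, and in A6 it rests on 0.369 and 0.675 FPKM.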
